A study of Mus musculus with 4 samples.

Results

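The 9 CXC chemokine genes described here are Cxcl1, Cxcl2, Cxcl3, Cxcl9, Cxcl10, Cxcl12, Cxcl13, Cxcl14 and Cxcl16. They were taken by gene symbol from the 24784 genes of the deposited table, by a rule that uses no measured value, although the genes were chosen with earlier results of these data known. All 9 had a value above 0 in every library, and all 9 passed the filter used for testing, an average over the 4 libraries of 1 RPKM or more (RPKM divides the reads of a gene by its length and by the library size).

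The study compared tumour-associated macrophages labelled OXCT1mKO with those labelled control, with 2 libraries of each. The mice behind both groups were male, 6 to 8 weeks of age, and bore tumours of the liver after receiving Hepa 1-6, a hepatoma line of mouse origin. Leukocytes were isolated from digested liver tissue and macrophages were taken by flow sorting, with antibodies that the labels do not name. The label OXCT1mKO names Oxct1, the gene of a mitochondrial enzyme of ketone body use. The sources used here do not name the promoter that drives the deletion, the strain or the animals behind each library. The tests therefore measure only the spread between libraries, which may be technical. Oxct1 itself was 14.7 and 15.4 RPKM in OXCT1mKO and 19.3 and 20.3 RPKM in control, a log2 difference of -0.37 ± 0.09 (SE) with a limma adjusted p of 0.0346. The transcript was lower but present, and one number per gene cannot tell if an exon was deleted. Besides the fits without an OXCT1mKO library, given below, the Oxct1 call was lost with equal library sums without globin genes (limma adjusted p 0.0627), without control 2 (0.0559), without the filter on low genes (0.0504) and in a fit with the replicate number as a block (0.0577).

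CXC chemokines are small secreted proteins that steer leukocytes through G protein-coupled receptors. Ligands that carry an ELR motif, such as Cxcl1, Cxcl2 and Cxcl3, act on Cxcr2 and draw neutrophils, and are induced through NF-kB by cytokines and microbial products. Cxcl9, Cxcl10 and Cxcl11 lack that motif, are induced by interferons and draw activated T cells and natural killer cells through Cxcr3. Cxcl12 and Cxcl13 are ligands of Cxcr4 and Cxcr5 that place blood stem cells and B cells in tissue. Cxcl16 is made as a membrane protein of macrophages and dendritic cells that binds Cxcr6, and Cxcl14 is a chemokine of epithelia.

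Of the 9 genes, Cxcl9 and Cxcl10 rose in OXCT1mKO, Cxcl1 fell, and the other 6 did not pass the test. The test was a limma fit on log2(RPKM + 1) with p-values adjusted over all 12523 genes tested and a threshold of 0.05. It called 32.8% of all genes, 16.4% higher and 16.4% lower in OXCT1mKO, so 3 of 9 is close to the share among all genes. The median difference of the 9 genes was 0.31 on the log2 scale, against 0.00 over all genes tested. The groups did not overlap for 6 of the 9 genes, 4 above and 2 below control, and for 74.7% of all genes tested. Non-overlap with OXCT1mKO above control covered 37.6% of all genes tested, and below control 37% of them.

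The number of calls depended on single libraries. Without OXCT1mKO 1 and without OXCT1mKO 2, 0 of the 9 genes were called, against 0.00799% and 0.0799% of all genes tested, and 21 of 21 other named genes that had passed and were followed in these fits lost their calls too. Those fits take the lone OXCT1mKO library to vary as the controls do. Without control 1 and without control 2, 4 of the 9 were called, against 27.6% and 35.3% of all genes. Leaving the low genes in gave 1 call among the 9 and 12% over all genes, and a minimum mean of 5 RPKM gave 5 calls among the 7 that pass it and 41.9% over all genes. Red cell transcripts set control 1 apart, since erythroid markers summed to 329.5 and 309 RPKM in OXCT1mKO and to 24384 and 846 RPKM in control 1 and control 2. With libraries set to equal sums without globin genes, 5 of the 9 were called, and 33.5% of all genes, 21.7% higher and 11.8% lower.

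The 10 macrophage markers were above 0 in all libraries and summed to 1638 and 1806 RPKM in OXCT1mKO and to 1526 and 869 RPKM in control. C1qa alone gave 389 and 439 RPKM of these sums in OXCT1mKO and 475 and 227 RPKM in control, and its groups overlapped, as did those of C1qb and C1qc. The median log2 difference of the macrophage list was 0.83, which its sums do not show. Markers of other cell types were present too, and their levels differed between groups. Of the macrophage markers 5 rose and 0 fell, and upward calls also covered 5 of 8 Kupffer cell, 6 of 7 monocyte, 6 of 8 conventional dendritic cell and 6 of 8 endothelial markers tested. T cell markers fell in 4 of 7 cases. Among all genes tested, 16.4% were called higher and 16.4% lower. Calls were also made among serous cavity macrophage (1 of 6 higher), neutrophil (1 of 7 lower), natural killer cell (2 higher and 2 lower of 7), stellate cell and fibroblast (1 of 5 lower) and hepatocyte markers (2 higher and 1 lower of 8), and 0 of 5 erythroid markers were called by limma or had an unadjusted p under 0.05. The share of each cell type was not measured, and in such bulk samples fewer cells of a type and less RNA per cell cannot be told apart. Mapped reads were estimated at 21500000 and 20100000 for OXCT1mKO 1 and OXCT1mKO 2 and at 22100000 and 22700000 for control 1 and control 2, from the values at which genes of low level pile up. The estimate rests on annotated gene lengths, so it carries no interval.

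**Figure D1:**
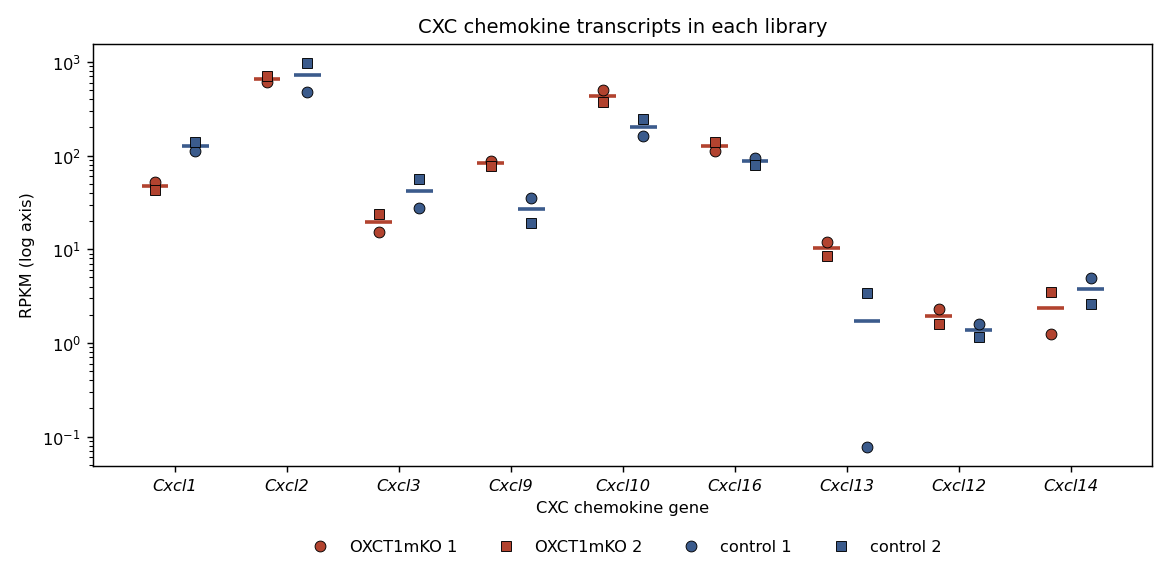
RPKM of the 9 CXC chemokine genes on a log axis, with OXCT1mKO left of control for each gene, 1 symbol per library and a bar at the mean of the 2 libraries. Cxcl9 and Cxcl10 sit higher and Cxcl1 lower in both OXCT1mKO libraries, and Cxcl13 spans 0.0772 to 3.38 RPKM between the controls.

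Levels per gene length set the order of the ligands. Cxcl2 was the most abundant of the 9 in all 4 libraries and Cxcl10 came next in all 4. Cxcl2 made up 43.7% and 51.3% of the summed RPKM of the 9 genes in OXCT1mKO and 51.9% and 64.0% in control. Cxcl10 made up 35.9% and 27.1% in OXCT1mKO and 17.7% and 16.1% in control. The place of Cxcl1 differed by group, being the fifth in both OXCT1mKO libraries and the third in both controls, while Cxcl16 was the third in OXCT1mKO and the fourth in control. The sum of the 9 genes was 1386 and 1381 RPKM in OXCT1mKO and 911 and 1514 RPKM in control, so the total did not separate the groups. Cxcl12, Cxcl13 and Cxcl14 each made up less than 1% of the sum in every library, and neighbours among these low genes changed places between libraries.

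**Figure D2:**
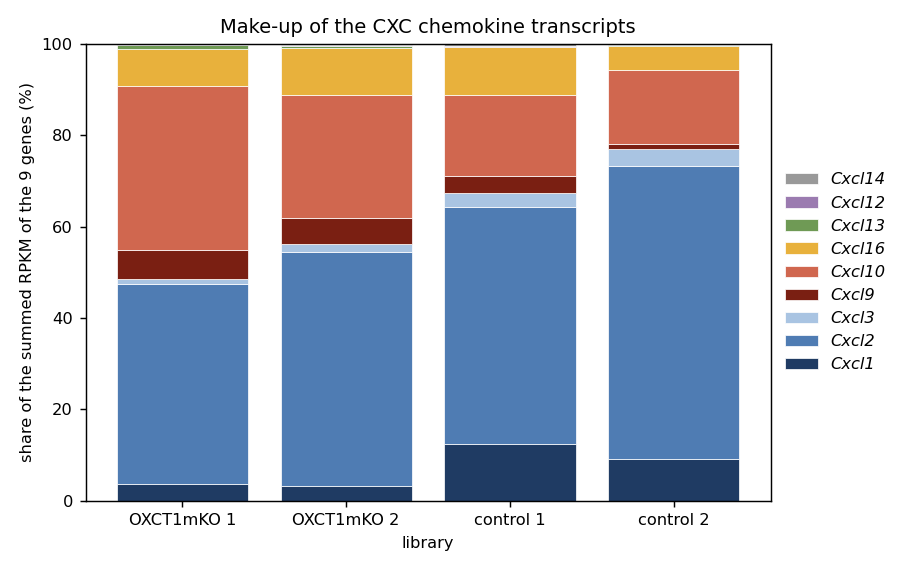
Share of each gene in the summed RPKM of the 9 CXC chemokine genes, in percent, as 1 stacked bar per library with OXCT1mKO on the left. Cxcl10 and Cxcl9 take a larger part, and Cxcl1 a smaller part, in both OXCT1mKO bars, for example 3.78% and 3.14% for Cxcl1 in OXCT1mKO against 12.4% and 9.23% in control.

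Cxcl1, Cxcl2 and Cxcl3 are ligands of Cxcr2, and they lie on the plus strand of chromosome 5 in build GRCm38. Cxcl3 runs from 90786103 to 90789600, Cxcl1 from 90891241 to 90893115 and Cxcl2 from 90903871 to 90905938, each with up to 4 exons in a transcript. Their promoters are shown because the genes share 1 match to the NF-kB consensus while their differences between the groups were unlike in size. The sequences are from RefSeq, build GRCm38.p6, and run from 250 bases before to 50 after the start site, with matches to the kB consensus and to TATAAA in capitals.
Cxcl1, chr5:90890995-90891294, plus strand: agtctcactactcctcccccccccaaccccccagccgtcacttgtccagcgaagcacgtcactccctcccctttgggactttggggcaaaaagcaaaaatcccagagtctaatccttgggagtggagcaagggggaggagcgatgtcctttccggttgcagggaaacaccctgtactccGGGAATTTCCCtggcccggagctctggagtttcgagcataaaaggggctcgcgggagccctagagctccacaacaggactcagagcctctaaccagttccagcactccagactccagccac
Cxcl2, chr5:90903649-90903948, plus strand: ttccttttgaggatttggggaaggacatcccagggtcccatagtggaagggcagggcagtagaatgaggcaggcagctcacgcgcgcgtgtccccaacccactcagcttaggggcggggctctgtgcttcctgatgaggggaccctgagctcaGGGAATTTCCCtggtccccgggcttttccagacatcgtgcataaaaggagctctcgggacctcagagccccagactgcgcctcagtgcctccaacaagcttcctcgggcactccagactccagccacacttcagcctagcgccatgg
Cxcl3, chr5:90785851-90786150, plus strand: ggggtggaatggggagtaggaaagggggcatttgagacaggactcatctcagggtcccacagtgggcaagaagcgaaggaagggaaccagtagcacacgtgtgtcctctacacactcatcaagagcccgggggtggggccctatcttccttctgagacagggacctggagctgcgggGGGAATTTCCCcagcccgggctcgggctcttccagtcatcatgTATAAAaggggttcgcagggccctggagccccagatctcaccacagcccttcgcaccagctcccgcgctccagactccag
All 3 windows held the same kB match on both strands, GGGAATTTCC on the plus strand, starting at -71, -97 and -73 from the start site for Cxcl1, Cxcl2 and Cxcl3. A kB match on either strand was present in 8.46% of 32851 promoter windows of this length. TATAAA was found in the Cxcl3 window, from -30 to -25, and in 13.6% of all windows.

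Cxcl1, a neutrophil attractant also known as KC, was 52.3 and 43.4 RPKM in OXCT1mKO, against 113 and 140 RPKM in control. Both OXCT1mKO libraries lay below both controls. Means were 47.9 ± 6.33 RPKM in OXCT1mKO and 126 ± 18.9 RPKM in control (SD, n = 2 each), which is -1.38 ± 0.15 (SE) on the log2 scale (limma adjusted p 0.0127). This fall ranked 67 from the largest among 12523 genes. Of the 9 genes it was the single one lower in OXCT1mKO that passed.

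Cxcl2, known as MIP-2, was 605 and 709 RPKM in OXCT1mKO and 473 and 969 RPKM in control. The controls enclosed both OXCT1mKO libraries, and control 2 was 2.05 times control 1. The log2 difference was -0.05, with a 95% interval of -0.97 to 0.87 (limma adjusted p 0.925), so differences of nearly 1 in either direction lie within the interval. It was 0.47 without control 2 and -0.56 without control 1.

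Cxcl3 was 15.3 and 23.7 RPKM in OXCT1mKO and 27.5 and 56.1 RPKM in control, with both OXCT1mKO libraries below both controls. The log2 difference was -1.01, with an interval of -2.0 to -0.01 and a limma adjusted p of 0.102. It did not pass, but passed at -1.51 without control 1 (limma adjusted p 0.0355). The transcripts of Cxcl2 and Cxcl3 share an identical stretch of 157 bases, against at most 49 bases for any other pair of the 15 CXC ligands examined, so part of the Cxcl3 level may depend on how reads were split between the genes. Cxcl2 was 39.4 and 29.9 times Cxcl3 in OXCT1mKO and 17.2 and 17.3 times Cxcl3 in control.

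Between the controls, Cxcl2 and Cxcl3 were lower in control 1 and higher in control 2. Neutrophil markers differed between the controls in the same direction. The 8 markers summed to 578 and 395 RPKM in OXCT1mKO and to 166 and 1297 RPKM in control, with 0 markers at 0 in any library. Between the OXCT1mKO libraries this sum had the opposite order to Cxcl2 (605 and 709 RPKM) and Cxcl3 (15.3 and 23.7 RPKM). Cxcl1 had the same order between the controls by a smaller factor, with a control 2 level of 1.24 times control 1. Epithelial and hepatoma markers, for their part, summed to 629 and 572 RPKM in OXCT1mKO and to 790 and 1102 RPKM in control. Of these 8 markers 3 were called lower and 1 higher, against 16.4% of all genes tested in each direction. None was at 0 in any library. The part of either cell type in these values was not tested.

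In the NF-kB inflammatory list, which holds inducers of the ELR ligands but also the inhibitors Nfkbia and Tnfaip3, the calls were all upward. Of its 14 tested genes, 7 rose and 0 fell, against 16.4% of all genes tested in each direction, and the median log2 difference was 0.55. Il1b, the cytokine interleukin-1 beta, was 550.4 and 697 RPKM in OXCT1mKO and 142 and 192 RPKM in control, a log2 difference of 1.90 ± 0.20 with a limma adjusted p of 0.0127. Tnfrsf1b, a receptor for tumour necrosis factor, rose by 1.06, Myd88, the adaptor of Toll-like and interleukin-1 receptors, by 0.52, and Il17ra, a receptor chain for interleukin-17, by 0.72. The Il17ra call was lost without control 1 (log2 difference 0.50, limma adjusted p 0.0553) and without the filter on low genes (0.0827). Tnf, which encodes tumour necrosis factor and was picked after its values were seen, was 54.2 and 63 RPKM in OXCT1mKO and 67.5 and 137 RPKM in control, a difference of -0.71 that did not pass (limma adjusted p 0.165). Il17a and Csf3 were below the filter.

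Cxcl9 and Cxcl10, the interferon-induced ligands of Cxcr3, rose together. Both lie on the minus strand of chromosome 5, Cxcl9 from 92321347 to 92328079 and Cxcl10 from 92346638 to 92348889. Their promoters are shown because these 2 genes rose, with matches to the kB consensus, to the interferon-stimulated response element (TTTC, any 2 bases, TTTC), to the gamma-activated site (TTC, any 3 bases, GAA) and to TATAAA in capitals, on either strand.
Cxcl9, chr5:92328030-92328329, minus strand: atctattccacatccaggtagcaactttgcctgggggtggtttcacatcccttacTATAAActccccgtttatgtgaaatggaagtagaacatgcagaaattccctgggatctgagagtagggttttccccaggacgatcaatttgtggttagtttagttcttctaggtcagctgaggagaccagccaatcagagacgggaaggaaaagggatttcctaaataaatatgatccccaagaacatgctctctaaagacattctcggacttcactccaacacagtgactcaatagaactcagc
Cxcl10, chr5:92348840-92349139, minus strand: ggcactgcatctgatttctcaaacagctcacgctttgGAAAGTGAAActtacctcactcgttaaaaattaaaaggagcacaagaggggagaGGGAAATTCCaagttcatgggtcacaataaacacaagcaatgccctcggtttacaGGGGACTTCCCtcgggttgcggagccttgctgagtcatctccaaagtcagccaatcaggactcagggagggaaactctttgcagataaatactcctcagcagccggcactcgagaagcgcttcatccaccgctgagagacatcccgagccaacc
The Cxcl10 window held 1 match to the interferon-stimulated element, from -213 to -204 relative to the start site, and 3 kB matches, of which 2 overlap. The Cxcl9 window held TATAAA alone, from -195 to -190, and the letters of the other 3 motifs are not in it. Sites outside the window, or with other letters, were not searched for. The interferon-stimulated letters occurred in 3.44% and the gamma-activated letters in 8.3% of all windows. Of the 8 genes with a promoter in the table, 4 held a kB match, 2 the interferon-stimulated letters, 1 the gamma-activated letters and 3 TATAAA.

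Cxcl9 was 88.3 and 78.1 RPKM in OXCT1mKO, against 34.9 and 19.0 RPKM in control. Both OXCT1mKO libraries lay above both controls. Means were 83.2 ± 7.20 RPKM in OXCT1mKO and 26.9 ± 11.2 RPKM in control (SD, n = 2 each), a log2 difference of 1.65 ± 0.29 with a limma adjusted p of 0.0187, or 0.0516 without the filter on low genes. Its rise ranked 106 among 12523 genes.

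Cxcl10, also called IP-10, was 497 and 374 RPKM in OXCT1mKO, against 162 and 244 RPKM in control. The groups did not overlap. It shares 133 exonic bases with Art3 on the opposite strand, which was 9.23 and 8.29 RPKM in OXCT1mKO and 2.86 and 4.38 RPKM in control. Means were 436 ± 86.6 RPKM in OXCT1mKO and 203 ± 58.3 RPKM in control (SD, n = 2 each), a log2 difference of 1.11 ± 0.25 with a limma adjusted p of 0.031. The call was lost without control 1 (log2 difference 0.82, limma adjusted p 0.0569) and without the filter on low genes (limma adjusted p 0.0759). Cxcl9 and Cxcl10 differed in which control was lower, Cxcl9 being lower in control 2 and Cxcl10 in control 1, so the ratio of Cxcl10 to Cxcl9 was 5.63 and 4.79 in OXCT1mKO and 4.64 and 12.8 in control. The sum of both genes relative to the sum of Cxcl1, Cxcl2 and Cxcl3 was 0.87 and 0.584 in OXCT1mKO and 0.32 and 0.226 in control.

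The interferon gamma list, which also holds the type I interferon receptor genes Ifnar1 and Ifnar2, changed in all of its 12 tested genes. Of these 11 were higher and 1 lower, with a median log2 difference of 0.73. The share called over all genes tested was 16.4% in each direction. Irf8, a myeloid interferon regulatory factor, was 59.3 and 65.5 RPKM in OXCT1mKO and 34.8 and 30.8 RPKM in control, a rise of 0.91 ± 0.11 with a limma adjusted p of 0.0127. The receptor chains Ifnar1 and Ifnar2 for type I interferon rose by 0.68 and 0.73. The single gene that fell was Ifng, interferon gamma itself, at 2.79 and 5.13 RPKM in OXCT1mKO and 26.2 and 11.3 RPKM in control, named here after its values were seen. It fell by 1.93 ± 0.44 on the log2 scale (limma adjusted p 0.0323). This call of Ifng was not followed under the processing alternatives. The summed level of 7 T cell markers was 35.6 and 67.9 RPKM in OXCT1mKO and 186 and 119 RPKM in control, with 0 markers at 0 in any library. Natural killer cell markers summed to 29.5 and 43.3 RPKM in OXCT1mKO and to 65.6 and 45.7 RPKM in control. Gzma made up 13.5 and 22.6 RPKM of the latter sums in OXCT1mKO and 47.3 and 32.0 RPKM in control. The natural killer cell markers did not move together, since 2 were called higher (Ncr1 and Klrk1) and 2 lower (Eomes and Gzma). Monocyte markers summed to 679 and 582 RPKM in OXCT1mKO and to 236 and 281 RPKM in control. Kupffer cell markers summed to 653 and 492 RPKM in OXCT1mKO and to 322 and 267 RPKM in control. Id3 alone gave 290 and 273 RPKM of the Kupffer cell sums in OXCT1mKO and 282 and 237 RPKM in control. The median log2 difference of the Kupffer cell list was 2.18, so its sum understates the change of most of its markers. Conventional dendritic cell markers summed to 149 and 184 RPKM in OXCT1mKO and to 63.5 and 94.2 RPKM in control, and endothelial markers to 1499 and 1344 RPKM in OXCT1mKO and 820 and 951 RPKM in control, again with 0 at 0. The part of these cells in the levels of Ifng, Cxcl9 and Cxcl10 was not tested.

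**Figure D3:**
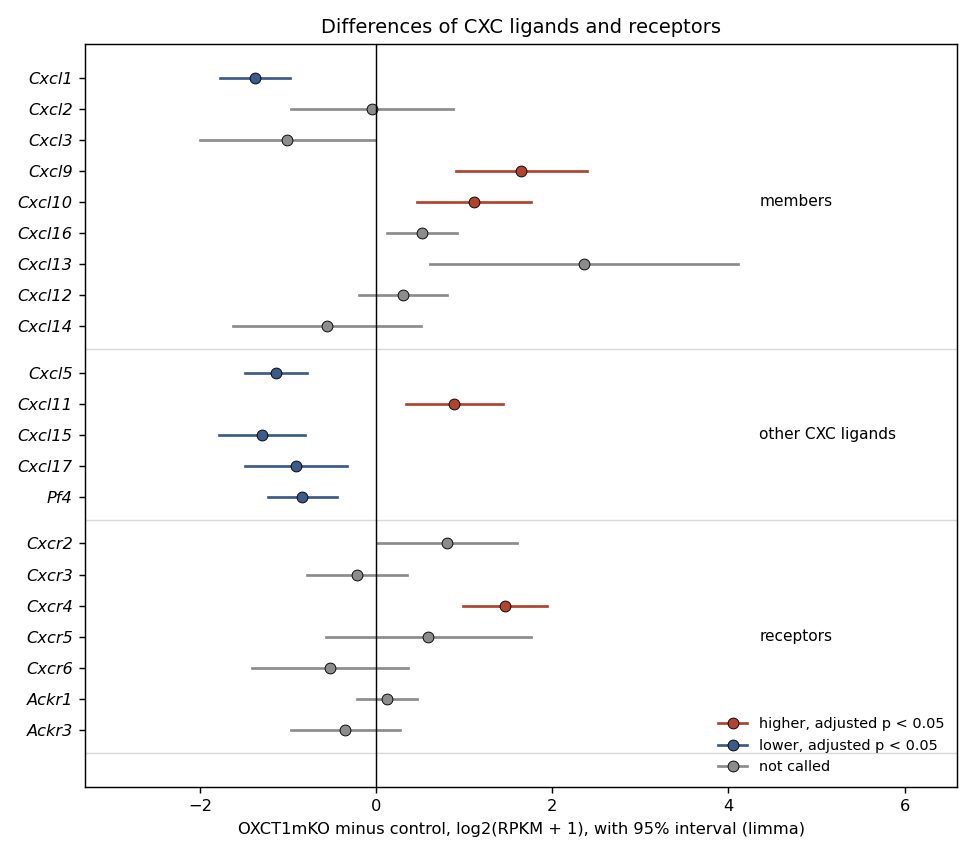
Log2 difference, OXCT1mKO minus control, of each tested CXC ligand and receptor with its 95% interval, coloured red where higher and blue where lower at a limma adjusted p under 0.05, and grey where not called. The members called are Cxcl9 at 1.65, Cxcl10 at 1.11 and Cxcl1 at -1.38, and among the receptors Cxcr4 alone is called, at 1.46.

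Cxcl16, the membrane-bound ligand of Cxcr6 and a scavenger receptor for oxidised lipoprotein, was 112 and 139 RPKM in OXCT1mKO, against 94.4 and 79.5 RPKM in control. The groups did not overlap. The log2 difference of 0.52 ± 0.15 did not pass (limma adjusted p 0.0561), but passed with libraries set to equal sums without globin genes, at 0.62 (limma adjusted p 0.0414), and with a minimum mean of 5 RPKM (limma adjusted p 0.048). Cxcl16 lies on the minus strand of chromosome 11 from 70453983 to 70459984, and 552 of its exonic bases overlap Zmynd15 on the plus strand. Zmynd15 was 36.9 and 41.9 RPKM in OXCT1mKO and 25.0 and 20.3 RPKM in control. The sources used here do not state the strand setting of the counting, so reads of these overlapping genes cannot be told apart. Of the proteases and syndecans listed for chemokine processing, 3 of 6 rose and 0 fell, against 16.4% of all genes tested in each direction. Adam10 and Adam17, the proteases that release Cxcl16 from the membrane, rose by 0.51 and 0.74, and Dpp4, which trims the start of several CXC chemokines, was 45.0 and 40.4 RPKM in OXCT1mKO and 14.6 and 18.8 RPKM in control, a rise of 1.32 ± 0.15 with a limma adjusted p of 0.0127. The Adam10 call was lost without the filter on low genes (limma adjusted p 0.0591).

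Cxcl13, the B cell attractant that marks follicles of lymphoid tissue, was 12.05 and 8.49 RPKM in OXCT1mKO, against 0.0772 and 3.38 RPKM in control. Both OXCT1mKO libraries lay above both controls, and the controls differed from each other by 43.8 times. The value of control 1 corresponds to about 2 reads by the depth estimate (1.97), and those of OXCT1mKO 1, OXCT1mKO 2 and control 2 to about 298, 197 and 88.3 reads. The level of control 1 was thus far below the others, but its exact value and its ratio to control 2 are uncertain. The log2 difference was 2.36 ± 0.67, with an interval of 0.61 to 4.11, and it did not pass (limma adjusted p 0.0536). It was 3.70 with a pseudocount of 0.1. The difference was 1.35 without control 1 and 3.37 without control 2, and both leave-out fits called it (limma adjusted p 0.0319 and 0.0171). Cxcl13 is on the plus strand of chromosome 5 from 95956951 to 95961068.

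Genes tied to Cxcl13 gave a mixed picture. Of 7 genes of the lymphotoxin list 1 rose and 1 fell, against 16.4% of all genes tested in each direction. Ltb, lymphotoxin beta, an inducer of Cxcl13 in lymphoid tissue, was 20.0 and 23.6 RPKM in OXCT1mKO and 66.3 and 50.4 RPKM in control, a fall of 1.37 on the log2 scale with a limma adjusted p of 0.0127, and Map3k14, the kinase of the alternative NF-kB pathway, rose by 0.81. The Map3k14 call was lost without control 1 (limma adjusted p 0.0642) and without the filter on low genes (0.0623). The 7 B cell markers measured summed to 74.9 and 91.5 RPKM in OXCT1mKO and to 22.6 and 156 RPKM in control, with 0 at 0 in any library. By limma 0 were called, and 0 had an unadjusted p under 0.05. Cxcl13 and the B cell sum were both lowest in control 1, but their highest values were in different libraries, and the part of B cells in the result was not tested.

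Cxcl12 and Cxcl14 were low and did not pass. Cxcl12, the ligand of Cxcr4 that stromal and endothelial cells make, was 2.32 and 1.59 RPKM in OXCT1mKO and 1.60 and 1.15 RPKM in control, and the groups overlapped by a narrow margin. Its log2 difference was 0.31, with an interval of -0.19 to 0.81 (limma adjusted p 0.258). Cxcl14 was 1.24 and 3.47 RPKM in OXCT1mKO and 4.97 and 2.63 RPKM in control, with overlapping groups, a log2 difference of -0.56 and an interval of -1.62 to 0.51 (limma adjusted p 0.331). It was -0.06 without OXCT1mKO 1 and -0.20 without control 1. Cxcl12 is on chromosome 6 (plus strand, 117168535 to 117181367) and Cxcl14 on chromosome 13 (minus strand, 56288643 to 56296551).

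The remaining CXC ligands were set beside the 9 genes, and 5 of 6 were tested. By limma 1 was higher and 4 were lower in OXCT1mKO, against 16.4% of all genes tested in each direction. Cxcl11, the other interferon-induced ligand of Cxcr3, was 2.61 and 2.05 RPKM in OXCT1mKO and 0.53 and 1.10 RPKM in control, a rise of 0.89 ± 0.21 with a limma adjusted p of 0.0353, which was lost without control 1 (limma adjusted p 0.0649) and without the filter on low genes (0.0746). It shares 1582 exonic bases with Gm2673 on the opposite strand, so its level is uncertain. Cxcl5, an ELR ligand of Cxcr2, was 1.82 and 1.39 RPKM in OXCT1mKO and 4.79 and 4.60 RPKM in control, a fall of 1.13 on the log2 scale (limma adjusted p 0.0127). Cxcl15, an ELR chemokine known as lungkine, was 9.84 and 13.7 RPKM in OXCT1mKO and 33.3 and 26.9 RPKM in control. In each of these ligands the groups were apart, as they were for 74.7% of all genes tested.

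Pf4, the platelet factor that some macrophages also express, was 17.3 and 21.7 RPKM in OXCT1mKO and 38.7 and 32.5 RPKM in control. Cxcl17, a chemokine of mucosal epithelia, was 0.384 and 0.778 RPKM in OXCT1mKO and 1.56 and 2.40 RPKM in control. The falls of Cxcl15, Pf4 and Cxcl17 were 1.29, 0.84 and 0.91 on the log2 scale, with limma adjusted p of 0.0143, 0.0201 and 0.0374, and the Cxcl17 call was lost without control 2 (limma adjusted p 0.0873) and without the filter on low genes (0.0742). Ppbp, the other platelet chemokine, was below the filter at 1.52 and 0.982 RPKM in OXCT1mKO and 0.639 and 0.484 RPKM in control.

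By position on chromosome 5 the ligands formed blocks. Cxcl5, Ppbp, Pf4, Cxcl3, Cxcl15, Cxcl1 and Cxcl2 have their start sites in this order within 145 kb (144.511), and 6 of the 7 were tested. The calls among them were the falls of Cxcl5, Pf4, Cxcl15 and Cxcl1, while 16.4% of all genes tested were called lower. Cxcl1 and Cxcl2 start 12.6 kb apart, and their differences were -1.38 and -0.05. Cxcl2 was 11.6 and 16.3 times Cxcl1 in OXCT1mKO and 4.19 and 6.93 times Cxcl1 in control, without overlap. Cxcl9, Cxcl10 and Cxcl11 follow 1424 kb further on, with start sites 20.8 and 16.6 kb from each to the next, and all 3 rose.

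**Figure D4:**
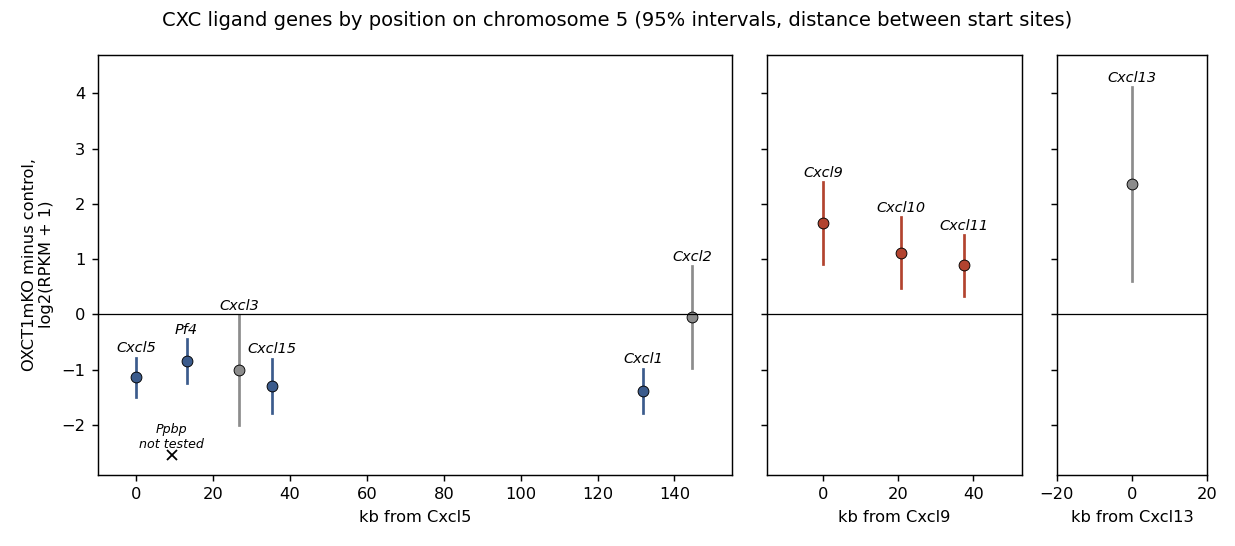
Log2 difference, OXCT1mKO minus control, of CXC ligand genes with 95% intervals against distance between start sites in kb, in 3 panels of the same scale for the Cxcl5 to Cxcl2 block, the Cxcl9 to Cxcl11 block and Cxcl13. Red and blue mark genes called higher and lower, grey marks genes not called, and the cross marks Ppbp, which was not tested.

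Receptors were measured in the same libraries, and 7 of 8 were tested, with 1 higher and 0 lower, against 16.4% of all genes in each direction. Cxcr4, the receptor of Cxcl12, was 81.4 and 71.4 RPKM in OXCT1mKO, against 22.8 and 32.1 RPKM in control. The groups did not overlap, and the log2 difference was 1.46 ± 0.18 with a limma adjusted p of 0.0128. Cxcr2, the receptor of the ELR ligands on neutrophils, was 2.57 and 2.81 RPKM in OXCT1mKO and 0.56 and 1.85 RPKM in control, and its difference of 0.81 did not pass (limma adjusted p 0.101). It passed without control 2 (limma adjusted p 0.0184).

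Cxcr3, the receptor of Cxcl9, Cxcl10 and Cxcl11, was 2.41 and 3.80 RPKM in OXCT1mKO and 4.28 and 3.18 RPKM in control, with overlapping groups and a log2 difference of -0.22 (interval -0.79 to 0.35, limma adjusted p 0.47). Cxcr5, the receptor of Cxcl13 on B cells, was 3.21 and 3.77 RPKM in OXCT1mKO and 0.87 and 3.73 RPKM in control, with 110 exonic bases shared with Bcl9l. It was thus low in control 1, as Cxcl13 was, and its difference of 0.59 did not pass (limma adjusted p 0.344), but did at 1.26 without control 2 (limma adjusted p 0.0184). Cxcr6, the receptor of Cxcl16 on T cells and natural killer T cells, was 4.05 and 8.25 RPKM in OXCT1mKO and 10.8 and 7.19 RPKM in control, a difference of -0.52 (interval -1.41 to 0.36, limma adjusted p 0.276).

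The atypical receptors, which bind chemokines without G protein signalling, did not pass either. Ackr1, which endothelial cells of venules and red cell precursors carry, was 8.30 and 10.1 RPKM in OXCT1mKO and 8.86 and 7.83 RPKM in control. Its interval was -0.22 to 0.46, and it shares 361 exonic bases with Cadm3. Ackr3, the scavenger of Cxcl12, was 5.62 and 5.28 RPKM in OXCT1mKO and 5.51 and 9.40 RPKM in control, with an interval of -0.97 to 0.27, and it fell without control 1 (limma adjusted p 0.0285). Cxcr1 was below the filter, with values up to 0.2 RPKM in all 4 libraries.

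**Figure D5:**
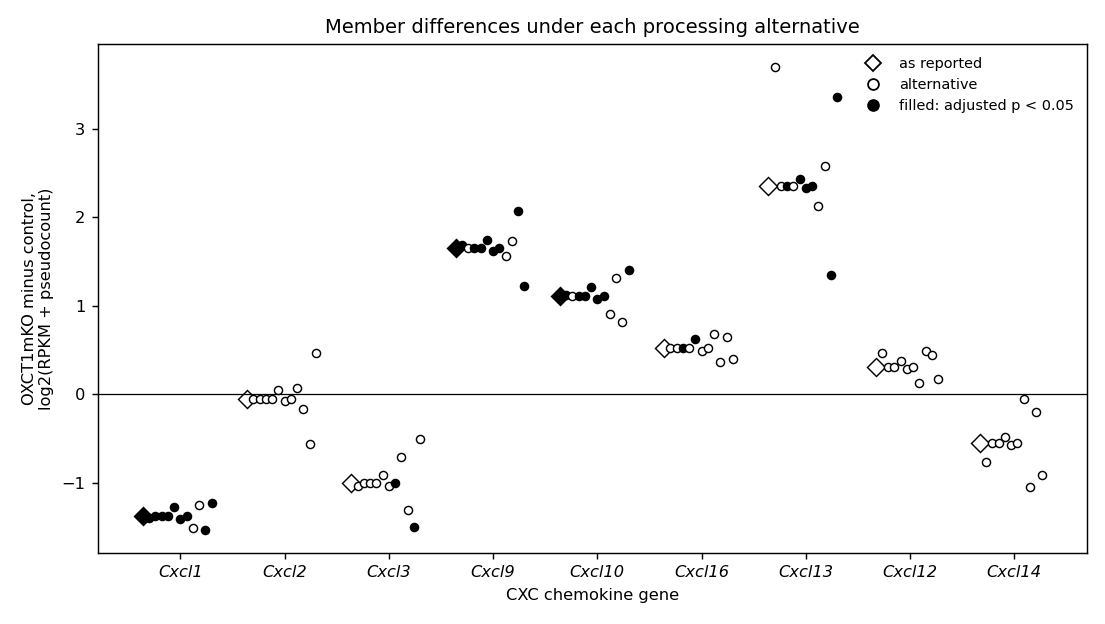
Log2 difference, OXCT1mKO minus control, of each of the 9 CXC chemokine genes as reported (diamond) and under each processing alternative (circles), filled where the limma adjusted p was under 0.05. Of the 9 genes only Cxcl2 crosses 0 under the alternatives run, with values of -0.56 to 0.47, and Cxcl13 spreads most widely.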

How the data were processed

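The authors deposited RPKM values of all samples in 1 table with genes as rows, and each column was assigned to its sample and group by the sample titles. Per the submitters' processing notes STAR 2.10, R 4.0.5 and build mm10 were used, with no role or order stated. The sources used here give no counter, strand setting, gene lengths or definition of library size, and the labels' protocol text names a microarray although the values are RPKM.

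RPKM values are not counts, so log2(RPKM + 1) was fitted with limma 3.58.1 in R 4.3.3 over 12523 genes, those averaging 1 RPKM or more, with 1 coefficient for the group, variances moderated by a trend, two-sided tests and Benjamini-Hochberg adjustment over all genes tested. Fold changes on this scale understate the change of low genes. The fit was tested on simulated data. With 2 libraries a group, the smallest two-sided p of an exact permutation test is 0.333, so none was used. Relative to the table, 1 read was worth the value at which low genes piled up after multiplication by GENCODE M21 exon length (GRCm38, also called mm10), within 1%. Such genes numbered 173 to 249 per library at 1 to 3 reads, against 40 to 57 midway between. The RPKM sums were 325034 to 377575 per library. Promoters came from RefSeq GRCm38.p6 for 8 of the 9 genes, all but Cxcl16. The kB consensus has 10 letters, some ambiguous.

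The 9 genes, 7 pathway lists and 14 cell type lists were chosen with earlier results of these data known. Named genes were the 9 genes, the other CXC ligands and receptors, up to 4 genes with the smallest p in each other pathway list, Oxct1, and Ifng, Tnf and Csf1r, which were chosen after their values were seen. The rule also allowed up to 2 genes of each cell type list, which are given as sums. One gene that the rule selects is not reported here. No gene set test was run. The alternatives were another pseudocount, other filters and scalings, no trend, a replicate block and leaving out each library.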

Additional observations from a re-analysis of the deposited data

How the results depend on the processing

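Of the 97 member values under alternatives, 75 kept their direction and side of the threshold, 9 lost the call, 10 gained it and 3 changed sign, all of Cxcl2. The cause of these changes was not tested. Without the filter on low genes limma called 2340 genes, 1191 higher and 1149 lower in OXCT1mKO, and 1 member, 0 higher, with Cxcl9 at 1.65 (limma adjusted p 0.0516) and Cxcl10 at 1.11 (0.0759). A minimum mean of 5 RPKM gave 5 members, 4 higher, with Cxcl13 at 2.36 (limma adjusted p 0.0448) and Cxcl16 at 0.52 (0.048), and gave no value for Cxcl12 and Cxcl14. Equal sums without globin genes called 2718 genes higher and 1479 lower, against 2058 and 2052 in the reported fit, shifted the median of all genes to 0.09, and gave 5 members, 4 higher, with Cxcl2 at 0.052, Cxcl13 at 2.43 and Cxcl16 at 0.62. Median-ratio scaling gave Cxcl13 at 2.34 (limma adjusted p 0.0473).

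Same-numbered libraries did not deviate together (r = 0.05 across 12523 genes), so the numbers are not taken to pair the libraries. A replicate block called 3606 genes and 5 members, 2 lower, with Cxcl3 at -1.01 (limma adjusted p 0.0165) and Cxcl13 at 2.36 (0.0414).

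Leaving out 1 library gave 1 to 4418 calls over all genes, 0 to 2362 higher and 1 to 2056 lower, and 0 to 4 members, 0 to 3 higher and 0 to 2 lower. The log2 differences ranged from -1.53 to -1.23 for Cxcl1, -0.56 to 0.47 for Cxcl2 (0.07 without OXCT1mKO 1), -1.51 to -0.51 for Cxcl3, 1.23 to 2.07 for Cxcl9, 0.82 to 1.41 for Cxcl10 and 1.35 to 3.37 for Cxcl13. Those of Cxcr3 ranged from -0.46 to 0.029, of Cxcr5 from -0.079 to 1.26 and of Ackr1 from -0.0045 to 0.25. Among the other named genes that were followed, which exclude Ifng and Tnf, 257 values kept direction and side. Of the rest, 55 lost the call, 8 gained it and 3 changed sign.

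With 2 libraries a group, intervals were wide for Cxcl2, Cxcl3 and Cxcl13, whose controls differ, and for Cxcl14, whose libraries differ within both groups. The depth is an estimate, and at 1.97 reads the Cxcl13 level of control 1 is low but its exact value is uncertain.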

Other observations

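Relative to Csf1r, the receptor of the macrophage growth factor, which was 128 and 115 RPKM in OXCT1mKO and 45.8 and 28.8 RPKM in control, the members took different orders. This ratio was chosen after the values were seen, and no test was made of it. Cxcl9 per RPKM of Csf1r was 0.692 and 0.678 in OXCT1mKO and 0.761 and 0.66 in control, so the groups overlapped on this scale although Cxcl9 rose on its own. Cxcl10 per RPKM of Csf1r was 3.89 and 3.25 in OXCT1mKO and 3.53 and 8.48 in control, also with overlap. Cxcl16 per RPKM of Csf1r was 0.877 and 1.21 in OXCT1mKO and 2.06 and 2.76 in control, and Cxcl2 per RPKM of Csf1r was 4.74 and 6.15 in OXCT1mKO and 10.3 and 33.6 in control. For Cxcl16 the order of the groups was thus the opposite of that of its RPKM.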
